A study of Homo sapiens with 6 samples.

Results

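The genes described here are 31 targets of the hypoxia-inducible factors (HIF), chosen by name from the 32917 genes of the deposited expression table and from the genes named in both deposited peak tables. All 31 names were present in the expression table, 27 in the list of m6A peaks and 18 in the comparison of peaks between treatments. The rule uses names alone and no measured value, but the names were chosen with earlier results of these data known.

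N6-methyladenosine (m6A) is a methyl mark on messenger RNA. It was mapped in Kasumi-1, an established cell line of human acute myeloid leukaemia with the RUNX1-RUNX1T1 fusion, wild type by its label. The 6 samples were 3 immunoprecipitates (IP) and 3 inputs, labelled as 3 biological replicates, and all carried the same combined treatment of CoCl2 (100 uM) with echinomycin (10 nM) over 24 hours. CoCl2 is a chemical mimic of low oxygen that stabilises HIF-1 alpha, and echinomycin binds DNA and blocks HIF-1 at its core site. In this assay an m6A antibody captures fragments of poly(A) RNA, and the enrichment of a region is its signal in the IP over its signal in the input. The authors' comparison set the combined treatment against CoCl2, so both of its arms had CoCl2 and the question was what echinomycin adds. Samples of CoCl2 without echinomycin were not analysed here. The model is therefore 1 cell line, under a chemical and not an oxygen-based stimulus. The peak tables hold 1 value per peak and no value per replicate, and FPKM leaves the depth of each library unknown.

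HIF is a pair of proteins. Its alpha subunit is marked by oxygen-dependent hydroxylases and destroyed while oxygen is present. When the alpha subunit is stable it enters the nucleus, joins ARNT there and binds a short site next to target genes. The targets shift metabolism to glycolysis, remove damaged mitochondria, build blood vessels, remodel collagen, and slow growth. m6A tends to lie around stop codons and in 3' UTRs and, through reader proteins, affects how long an mRNA lasts and how well it is translated.

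The core letters that HIF-1 binds, and that echinomycin competes for, are ACGTG. The promoter windows of RefSeq (GRCh38.p14, 250 bases before to 50 bases after a start site) matched 25 of the 31 genes with 39 windows. ACGTG on either strand was found in 18 of these 25 genes (72%), against 24.9% of the 27305 genes with a window. Counting only genes with exactly 1 window, it was found in 13 of 19 (68.4%) against 21.3%. The related form GCGTG was found in 15 of 25 genes (60%) against 40.6% of all genes. The palindrome CACGTG, which holds ACGTG on both strands and is therefore also counted in the ACGTG search, was found in 6 of 25 genes (24%) against 8.77%. A match is a string of letters and not a measured binding site. The genes were listed as HIF targets, so a higher share of the HIF core is no independent result. The 10 stretches below show where such letters lie. They come from 8 genes whose m6A peaks changed in the authors' comparison and from CA9 and P4HA1, which had no listed peak. All were picked from the 17 genes with ACGTG before a start site. They do not show whether the motif goes with a changed peak. ADM, PLOD1 and STC2 changed without ACGTG before a start site, and VEGFA, KLF10 and ZNF395 changed but had no window. AK4, ANGPTL4, ANKRD37, INSIG2, MXI1, PLOD2 and PPP1R3C held it there with no changed peak. Each stretch runs 5' to 3' in the direction of the gene over 30 bases of GRCh38.p14. The motif is in capitals (ACGTG in the gene's direction, CACGT for its reverse, CACGTG for both).
BHLHE40, chr3:4979276-4979305, plus strand: cacagggtagaaCACGTagctccaacccac
BNIP3, chr10:131982040-131982069, minus strand: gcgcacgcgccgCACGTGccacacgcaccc
DDIT4, chr10:72273787-72273816, plus strand: agaacgttgcttACGTGcgcccggagtcca
ERO1A, chr14:52695655-52695684, minus strand: cgggcgccgcggCACGTccacaggctgggt
FAM162A, chr3:122384086-122384115, plus strand: cagcgcgtggcgCACGTcctacacgccccg
LOX, chr5:122078427-122078456, minus strand: gctccctgtgcaACGTGtctggggggagga
RBPJ, chr4:26319594-26319623, plus strand: aggcaacaggggCACGTtctcgcgaggttt
WSB1, chr17:27294044-27294073, plus strand: gggctgtgacgtCACGTGgccgcgcccctg
CA9, chr9:35673898-35673927, plus strand: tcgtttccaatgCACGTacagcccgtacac
P4HA1, chr10:73096935-73096964, minus strand: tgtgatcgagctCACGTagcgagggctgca
The motif begins 18 bases before the RefSeq start of CA9, 58 before that of WSB1, 134 before that of BNIP3 and 185 before that of LOX. The stretches of BNIP3 and WSB1 show the palindrome, and the other stretches hold ACGTG on 1 strand. For BHLHE40, LOX and WSB1 the stretch is 1 of several, and another of BHLHE40 also holds the palindrome. The stretches of ERO1A, P4HA1 and RBPJ lie wholly inside the gene as annotated in the expression table. That of RBPJ is far from the annotated start at chr4:26163455.

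Most HIF target genes were expressed under the combined treatment. A mean input level of 1 FPKM or more, taken here as expressed, was reached by 23 of the 31 (74.2%), against 38.3% of all genes of the table. That table also lists noncoding RNA genes, which the list of targets does not, so all genes are not a like background. FPKM counts fragments scaled to transcript length and to the mapped fragments of the library, so levels can be set against each other between genes. The median level of the 23 expressed targets was 21.7 FPKM, against 5.36 FPKM for all 12612 expressed genes. Of the 31, 12 reached 20 FPKM, 11 lay between 1 and 20 FPKM, and 8 lay under 1 FPKM. The libraries are bulk, so a low level from fewer cells and a low level from less RNA per cell cannot be told apart. Since every input had the same treatment, these levels say nothing of whether echinomycin raised or lowered a transcript.

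**Figure D1:**
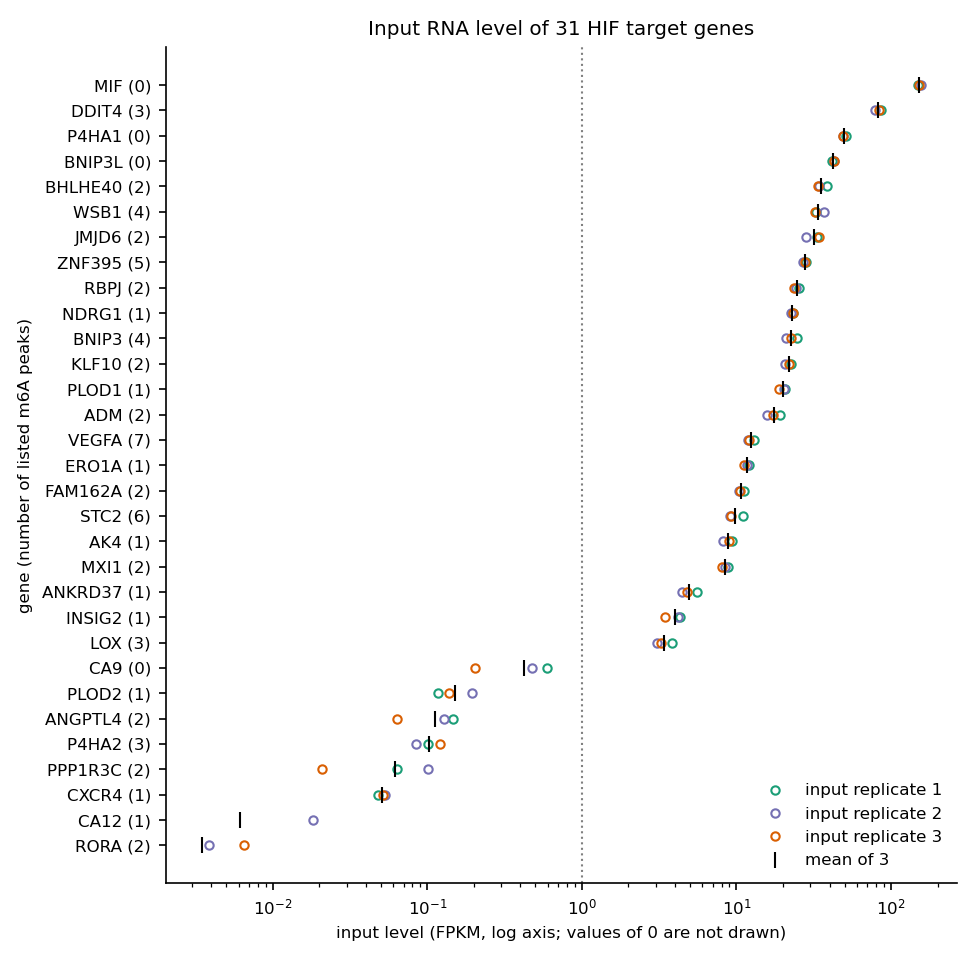
Input level (FPKM, log axis) of the 31 HIF target genes in each of the 3 input libraries (circles) and their mean (bar), with the number of listed m6A peaks in brackets; the dotted line marks 1 FPKM and values of 0 are not drawn. MIF stands highest at 153 FPKM, and 8 genes lie left of the line.

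The highest level belonged to MIF, a cytokine named for holding macrophages in place, with 150.3, 156 and 152 FPKM in input replicates 1, 2 and 3 (mean 153 ± 3.20, SD, n = 3). Next came DDIT4, an inhibitor of mTORC1, at 83.0 ± 3.71 FPKM (SD, n = 3). P4HA1, a catalytic subunit of collagen prolyl 4-hydroxylase, had 51.5, 48.9 and 48.6 FPKM. BNIP3L, a mitophagy receptor, had 41.5, 42.8 and 42.5 FPKM, the tightest set of libraries with a coefficient of variation of 1.59%. None of these top 4 overlapped its neighbour in any library. Further down, 11 of the 22 neighbouring pairs of expressed targets overlapped, among them BHLHE40 with WSB1, NDRG1 with BNIP3, and the run from VEGFA through ERO1A, FAM162A, STC2 and AK4 to MXI1. The order within those pairs does not exceed the spread between libraries. The median coefficient of variation of the 23 expressed targets was 4.8% (1.59 to 12.1%), against 6.06% for all expressed genes.

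The 8 targets under 1 FPKM included both carbonic anhydrases of the list, the enzymes that keep a hypoxic cell from acidifying. CA9, a gene often used as a read-out of HIF-1 in carcinoma cells, had 0.598, 0.472 and 0.204 FPKM, and CA12 was listed at 0 in replicates 1 and 3 and at 0.0183 FPKM in replicate 2. The collagen enzymes split by paralog: PLOD1 lay at 19.98 ± 0.959 FPKM (SD, n = 3) and PLOD2 at 0.150 ± 0.0402 FPKM (SD, n = 3), and P4HA1 at 49.6 ± 1.58 FPKM (SD, n = 3) against 0.102 ± 0.0177 FPKM (SD, n = 3) for P4HA2. The libraries of the paralogs did not overlap in either pair. CXCR4, the chemokine receptor that holds blood stem cells in the marrow, lay at 0.0508 ± 0.00258 FPKM (SD, n = 3). ANGPTL4, a secreted inhibitor of lipoprotein lipase, PPP1R3C, a glycogen-targeting subunit of protein phosphatase 1, and RORA, a nuclear receptor, ranged from 0.00345 to 0.113 FPKM in their means.

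Input replicate 1 held the highest value in 18 of the 23 expressed targets (78.3%), against 28.2% of all expressed genes and 19.8% of genes of 20 FPKM or more. The lift was small: the median ratio of replicate 1 to the mean of the other 2 was 1.07 for the targets and 0.989 for all expressed genes. STC2 had 11 FPKM in replicate 1 against 9.11 and 9.23, ADM 19.1 against 15.8 and 17.2, and BHLHE40 38.6 against 34.3 and 33.5. The exceptions were MIF, BNIP3L and WSB1, which were highest in replicate 2, and JMJD6 and NDRG1, which were highest in replicate 3. Glycolytic HIF targets showed the same order of libraries, with replicate 1 highest in 17 of 22 (77.3%) at a median ratio of 1.05. HIF subunits and regulators did not, with 4 of 10. The pattern was noticed in these values and is given without a test. Genes that move together are not independent counts of it.

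**Figure D2:**
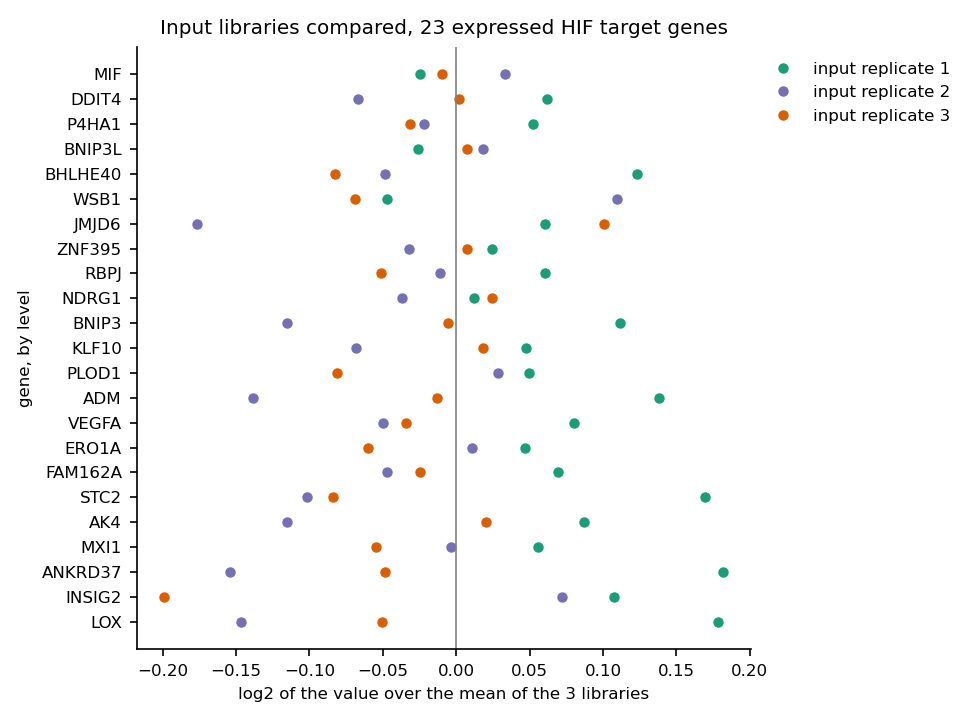
Deviation of each input library from the mean of the 3 (log2) for the 23 expressed HIF target genes, ordered by level. Replicate 1 lies right of 0 in 20 of 23 genes and is the highest library in 18.

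The cells carried markers of the labelled line: 9 of 11 fixed Kasumi-1 markers were expressed, with a summed level of 185 to 203 FPKM over the list. MPO was highest at 56.2 FPKM, RUNX1T1 had 4.21 FPKM and CD33 had 1.48 FPKM. ELANE and CD38 were not expressed, at 0.0185 and 0.0235 FPKM. Among 4 T cell markers CD3D was expressed, at 32.1 FPKM, while CD2 and CD3G were listed at 0. B cell markers were expressed in 2 of 4 (7.51 to 9.69 FPKM summed), megakaryocyte markers in 1 of 4 (1.42 to 1.71 FPKM summed), and stroma and epithelium in 1 of 6 (EPCAM, 8.79 FPKM), where COL1A2 was not among the rows of the expression table. No erythroid marker was expressed, and 3 of the 4 were not among the rows of the expression table. The part of these markers in the results on the HIF targets was not tested.

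The authors' peak list of the combined treatment held 64 peaks in 27 of the 31 targets, of 42634 peaks in all. Fold enrichment, IP over input, is the authors' value for each peak and comes with no error. Of the 23 expressed targets, 20 had a listed peak (87.0%, exact Clopper-Pearson 95% interval 66.4 to 97.2, counting error only), against 79.7% of all expressed genes. The 3 expressed targets without a peak were MIF, P4HA1 and BNIP3L, which rank 1, 3 and 4 by level. Among targets of 20 FPKM or more, 9 of 12 had a peak (75%, interval 42.8 to 94.5), against 80.9% of all genes at that level, a background inside the interval. CA9 was the fourth gene without a listed peak.

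Of the 64 peaks, 30 lay in 3' UTRs (46.9%, against 42.5% of all listed peaks), 21 in 5' UTRs (32.8% against 23.1%) and 13 in other exons (20.3% against 34.3%). The exact 95% intervals of the member shares were 34.3 to 59.8, 21.6 to 45.7 and 11.3 to 32.2%, so the shares of all peaks in 5' UTRs and 3' UTRs lay inside them and that of other exons lay above. Peaks of 1 gene share that gene's transcript and are not independent. In expressed targets, 10 of 18 peaks in 5' UTRs began at the annotated gene start (55.6%, interval 30.8 to 78.5). The share in all expressed genes was 34.1%, a background inside the interval. Median fold enrichment was 4.18 in the targets and 4.53 in all peaks. The authors' FDR was 0.05 or more for 5 of the 64, and 3 lay on the exon of a different gene from their assigned gene, namely 1 of BNIP3 and both of RORA. Of the 8 targets under 1 FPKM, 7 had a listed peak (87.5%, interval 47.3 to 99.7), against 30.7% of all genes under 1 FPKM. Noncoding RNA genes are again among all genes, so the background is not a like set. Enrichment there is a ratio to a very low input, and 2 of the 7, RORA and CXCR4, had no listed peak that both passed an FDR of 0.05 and lay on an exon of their own.

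**Figure D3:**
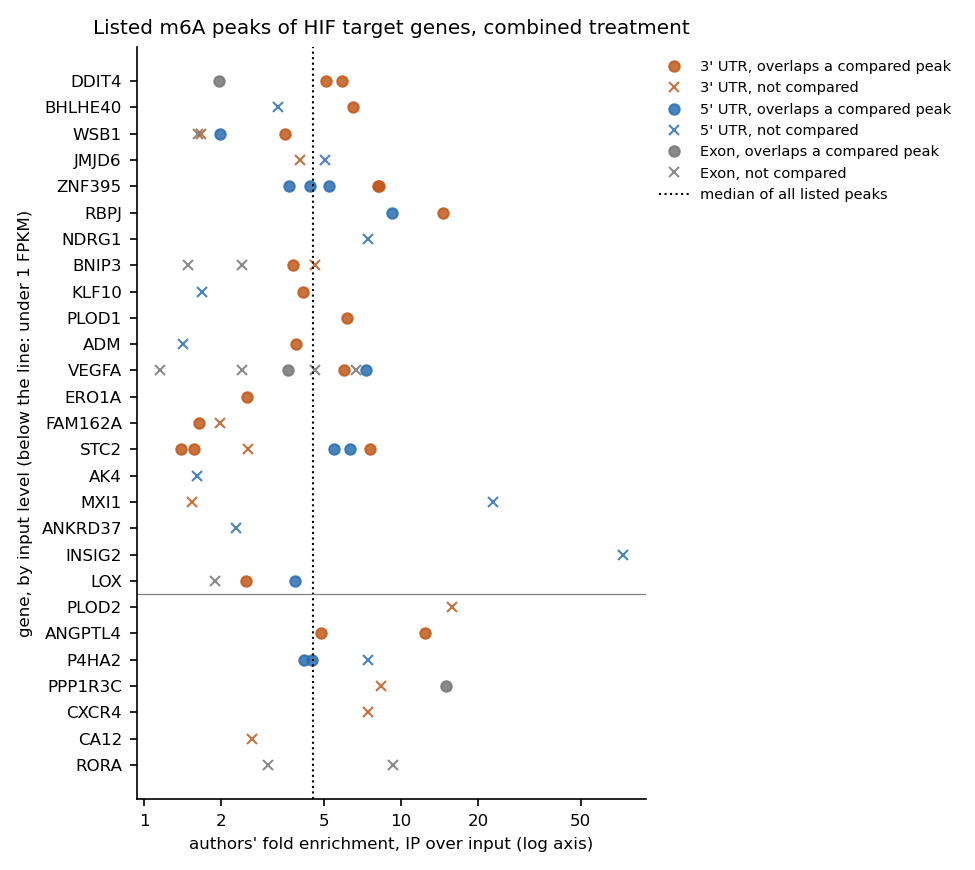
Authors' fold enrichment (IP over input, log axis) of the 64 listed m6A peaks of 27 HIF target genes, coloured by region; filled circles overlap a peak of the authors' comparison, crosses do not, and the dotted line marks the median of all listed peaks. INSIG2 lies far right at 73.1, in a peak that was not compared.

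The highest enrichment belonged to INSIG2, an endoplasmic reticulum protein that restrains sterol synthesis, at 73.1 in a 5' UTR peak (chr2:118088452-118096480, percentile 99.9 of all listed peaks). INSIG2 was expressed at only 3.98 ± 0.447 FPKM (SD, n = 3). MXI1, an antagonist of MYC, had a 5' UTR peak of 22.8 (chr10:110227009-110227872) and a 3' UTR peak of 1.54, at 8.42 ± 0.324 FPKM (SD, n = 3). RBPJ, the DNA-binding factor of Notch signalling, was enriched in both UTRs, 9.20 in its 5' UTR and 14.5 in its 3' UTR. These 3 were the only expressed targets with a peak above 10.

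VEGFA, the main angiogenic growth factor, had 7 listed peaks, the most among the 31 targets. Its 5' UTR peak of 7.31 and its 3' UTR peak of 6 were joined by 5 exon peaks from 1.15 to 6.69. STC2, a secreted glycoprotein, had 6, of which a 3' UTR peak of 7.56 and 5' UTR peaks of 6.32 and 5.46 stood above the rest. ZNF395, a zinc finger transcription factor, had 5, which form a group of 2 overlapping peaks in the 3' UTR and a group of 3 in the 5' UTR linked by the longest of them. In DDIT4 and P4HA2, 2 of the 3 listed peaks overlap each other. Overlapping peaks are not separate sites. At the other end, AK4, a mitochondrial adenylate kinase, had 1 peak of 1.60, and FAM162A, a mitochondrial protein linked to cell death, had 2 peaks of 1.63 and 1.98. JMJD6, an oxygenase that hydroxylates lysines, had peaks of 5.06 in its 5' UTR and 4.04 in its 3' UTR at 33.3, 28.2 and 34.2 FPKM, with replicate 2 low. NDRG1, a stress-induced cytoplasmic protein, had 23.2, 22.4 and 23.4 FPKM and 1 peak of 7.45 in its 5' UTR, whose log10 FDR of -1.2 does not pass 0.05. By FDR the NDRG1 peak lies at the loose end of the list. Its enrichment equals the upper quartile of all listed peaks, but many peaks lie at or just under that value. An enrichment of 7.31 had percentile 72.7 and one of 7.45 percentile 76.1. The same value of 7.45 was listed for a peak of CXCR4 and a peak of P4HA2, which did not pass either.

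The authors' deposited table of the comparison held 33 peaks in 18 of the targets. A peak counts as changed at the authors' FDR under 0.05. By that rule 21 of 33 peaks changed in the authors' deposited table (63.6%), against 68.9% of all 19983 compared peaks. Of these, 6 were higher after the combined treatment (23.1% of all peaks were) and 15 were lower (45.8% of all peaks were). Target peaks had a median log2 fold change of -0.40 and all peaks one of -0.43, by the authors' deposited table. At an FDR under 0.01 the count in the authors' deposited table was 20, against a background of 57.3%. In count and median the targets lay near the whole table, so these values show nothing particular to them.

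Large changes were few. Of the 33 target peaks in the authors' deposited table, 2 changed at least 2-fold (6.06%, exact 95% interval 0.743 to 20.2), the 5' UTR peak of RBPJ upward and that of LOX downward. The background in the authors' deposited table was 17.2% of all peaks and 12.1% for genes of 20 FPKM or more, both inside that interval. The median size of a changed peak in the authors' deposited table was 0.58 on the log2 scale for the targets and 0.70 for all genes.

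Taking each gene by its peak of lowest p, 14 of 18 targets changed in the authors' deposited table (77.8%), against 75.3% of all 11315 compared genes. ADM, ERO1A, FAM162A and WSB1 were higher (4 of the 18, where 22.6% of all compared genes were higher). Lower were 10 of the 18 (52.7% of all compared genes were): BHLHE40, BNIP3, DDIT4, KLF10, LOX, PLOD1, RBPJ, STC2, VEGFA and ZNF395. Lower here means below 0. By the same choice of peak the median of all compared genes was -0.50. BNIP3 (-0.39), RBPJ (-0.46), VEGFA (-0.43) and ZNF395 (-0.17) lay above that median, and the other lower targets lay below it. All 14 changed targets were expressed. The signs of RBPJ and ZNF395 depend on which of their peaks is taken, as described below.

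**Figure D4:**
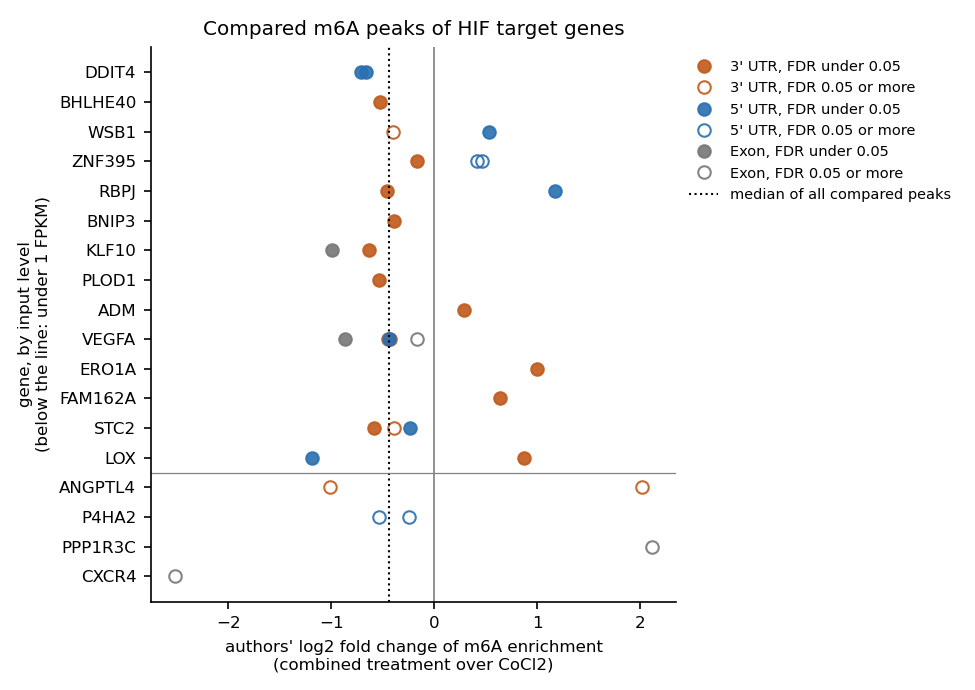
Authors' log2 fold change of m6A enrichment (combined treatment over CoCl2) for the 33 compared peaks of 18 HIF target genes, coloured by region, filled at an FDR under 0.05; the dotted line marks the median of all compared peaks and genes below the thin line are under 1 FPKM. RBPJ and LOX have filled points on both sides of 0, and those of VEGFA, STC2, DDIT4 and KLF10 lie left of it.

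Among the secreted signals, VEGFA had 13.1, 11.9 and 12.1 FPKM in input replicates 1, 2 and 3, with replicate 1 slightly high. All 5 of its compared peaks lay below 0 in the authors' deposited table, and 3 passed the FDR limit. The median of all compared peaks there was -0.43, so a value below 0 is common. Its 5' UTR peak (chr6:43770184-43772061) stood at -0.44 (log10 FDR -35.5) in the authors' deposited table, and its 3' UTR peak (chr6:43784421-43785798) at -0.43 (log10 FDR -82). A short exon peak (chr6:43780739-43780889) stood at -0.87 (log10 FDR -2.06) in the authors' deposited table and overlapped no listed peak. The 2 ends of the VEGFA transcript thus fell by nearly the same amount, which is also close to the median of all peaks.

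STC2 had 11, 9.11 and 9.23 FPKM, with replicate 1 above the others. All 3 of its peaks lay below 0 in the authors' deposited table, at -0.58 in the long 3' UTR peak (chr5:173317044-173323198, log10 FDR -38.1), -0.23 in the 5' UTR peak (log10 FDR -2.14) and -0.39 in a short 3' UTR peak that did not pass (log10 FDR -1.15). The STC2 values lie on both sides of the median of all compared peaks, -0.43. ADM, a vasodilator peptide, had 19.1, 15.8 and 17.2 FPKM and went the other way. Its 3' UTR peak (chr11:10306384-10307129) stood at 0.29 (log10 FDR -8.95) in the authors' deposited table, a rise of small size. The 5' UTR peak of ADM, enriched 1.42-fold, was not compared. ANGPTL4 and CXCR4, both under 1 FPKM, had 3 compared peaks from -2.52 to 2.02 in the authors' deposited table, none of which passed. MIF, without a listed peak, was not compared.

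Among the genes of mitochondria and mitophagy, BNIP3, a mitophagy receptor, had 24.5, 20.9 and 22.6 FPKM, highest in replicate 1. Its compared 3' UTR peak (chr10:131966485-131967442) stood at -0.39 in the authors' deposited table with a log10 FDR of -1.44, just inside the limit. Its strongest listed peak, 4.64 in another stretch of the 3' UTR (chr10:131968668-131970044), was not compared. FAM162A had 11.2, 10.4 and 10.5 FPKM, and its 3' UTR peak of 60 bases (chr3:122407455-122407514) stood at 0.64 (log10 FDR -4.67) in the authors' deposited table. That rise is in a peak enriched only 1.63-fold. BNIP3L and AK4 were not compared, so the 4 genes of this role gave 1 higher and 1 lower.

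Among the genes of collagen and matrix, PLOD1, a lysyl hydroxylase of collagen, had 20.7, 20.4 and 18.9 FPKM, lowest in replicate 3. Its 3' UTR peak (chr1:11972867-11975538, enrichment 6.16) stood at -0.53 (log10 FDR -57.2) in the authors' deposited table. LOX, the oxidase that cross-links collagen and elastin, had 3.83, 3.05 and 3.26 FPKM, the lowest level among expressed targets. Its peaks moved apart: in the authors' deposited table the 5' UTR peak at the gene start (chr5:122077880-122078360) stood at -1.19 (log10 FDR -13.2) and a 3' UTR peak of 150 bases (chr5:122066553-122066702) at 0.88 (log10 FDR -2.24). P4HA2, under 1 FPKM, had 5' UTR peaks at -0.25 and -0.54 in the authors' deposited table, neither of which passed. P4HA1, PLOD2 and both carbonic anhydrases were not compared.

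The 4 compared genes of transcription and chromatin, by their peak of lowest p, were all lower in the authors' deposited table, where 52.7% of all genes were lower. For RBPJ and ZNF395 the sign turned with another choice of peak. BHLHE40, a repressor with a basic helix-loop-helix domain, had 38.6, 34.3 and 33.5 FPKM, highest in replicate 1. Its peak across the 3' UTR (chr3:4980226-4983983, enrichment 6.5) stood at -0.53 (log10 FDR -109) in the authors' deposited table. KLF10, a zinc finger factor induced by TGF-beta, had 22.5, 20.7 and 22.0 FPKM. In the authors' deposited table its 3' UTR peak stood at -0.64 (log10 FDR -40.1) and an exon peak beside it, which overlapped no listed peak, at -0.996 (log10 FDR -17.3).

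RBPJ had 25.6, 24.3 and 23.7 FPKM, with little spread. In the authors' deposited table its 5' UTR peak (chr4:26272746-26321624, 989 exonic bases in 4 blocks) stood at 1.17 (log10 FDR -43.8), while its 3' UTR peak (chr4:26430411-26431388) stood at -0.46 (log10 FDR -50.6). The opposite signs are of similar weight by FDR, so RBPJ has no single direction. ZNF395 had 28.2, 27.1 and 27.8 FPKM. Its 3' UTR peak was lower by a small step in the authors' deposited table, at -0.17 (log10 FDR -2.4), and its overlapping 5' UTR peaks of 0.41 and 0.46 did not pass. JMJD6 and MXI1 had listed peaks that were not compared.

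RBPJ and LOX were 2 of 6 targets with at least 2 changed peaks whose changed peaks went both ways in the authors' deposited table. Among all genes with at least 2 changed peaks in the authors' deposited table, 34.3% did so (1148 of 3343), so 2 of 6 is near the background.

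Among the genes of stress, metabolism and signalling, DDIT4 had 86.6, 79.2 and 83.1 FPKM, highest in replicate 1. Its long peak (chr10:72274132-72275649), labelled 5' UTR but spanning 1459 exonic bases toward the 3' end, stood at -0.66 (log10 FDR -434) in the authors' deposited table, the lowest FDR of any target. A short 5' UTR peak (chr10:72273984-72274073) stood at -0.71 (log10 FDR -20.8) in the authors' deposited table and overlapped no listed peak. ERO1A, the oxidase that forms disulfide bonds in the endoplasmic reticulum, had 12, 11.7 and 11.1 FPKM. It had the largest rise among the 14 changed targets taken by lowest p, 0.996 (log10 FDR -32.2) in the authors' deposited table, in its 3' UTR peak (chr14:52643389-52646182, 271 exonic bases, enrichment 2.51).

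WSB1, a substrate receptor of a ubiquitin ligase, had 32.8, 36.6 and 32.3 FPKM and was highest in replicate 2. In the authors' deposited table its 5' UTR peak (chr17:27294106-27294286), which begins 30 bases after the gene start, stood at 0.53 (log10 FDR -11.3). Its 3' UTR peak stood at -0.40 in the authors' deposited table with a log10 FDR of -1.3, just outside the limit, next to BNIP3 just inside. PPP1R3C, under 1 FPKM, had an exon peak of 2.12 in the authors' deposited table that did not pass (log10 FDR -0.34). NDRG1, INSIG2 and ANKRD37, an ankyrin repeat protein, were not compared, so the strongly enriched INSIG2 peak has no value between treatments.

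**Figure D5:**
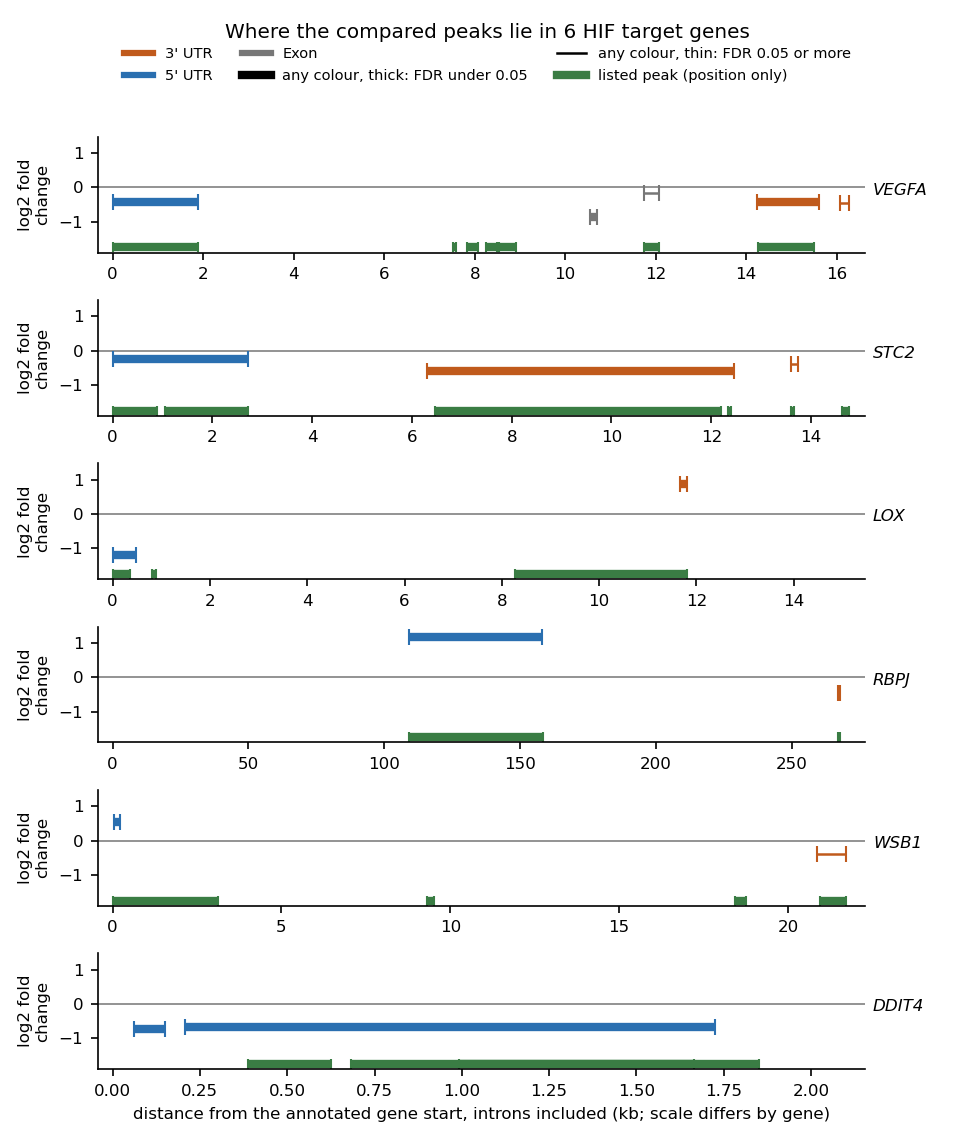
Position along the gene (kb from the annotated start, introns included, scale differing by gene) and authors' log2 fold change of each compared peak in 6 HIF target genes; thick lines have an FDR under 0.05 and green bars mark listed peaks by position only. The 5' UTR and 3' UTR peaks of LOX and RBPJ move in opposite directions, and the 5' UTR peak of RBPJ lies far inside the annotated gene. VEGFA, STC2 and DDIT4 lie below 0 along the transcript, as does the median of all compared peaks (-0.43).

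The direction of the fold change is not stated in the labels and was taken from the order of conditions in the table's name. It was checked against the list of peaks of the combined treatment. Of all compared peaks at a log2 fold change of 2 or above in the authors' deposited table, 989 of 995 (99.4%) shared at least 1 base with a listed peak, against 440 of 985 (44.7%) at -2 or below. Among the targets, 28 of 33 compared peaks overlapped a listed peak (84.8%, against 91.4% of all). The 5 that did not were in CXCR4, DDIT4, KLF10 and VEGFA, all with values below 0 in the authors' deposited table. The median of all compared peaks was also below 0, at -0.43, so that sign is not particular to these 5. In the other direction, 34 of 64 listed peaks of the targets overlapped a compared peak (53.1% against 50.3% of all), and AK4, ANKRD37, INSIG2, JMJD6, MXI1 and NDRG1 were expressed with listed peaks and no compared peak. The input level of each gene under CoCl2 without echinomycin was not analysed here, so no change of enrichment can be set beside a change of RNA level.

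The other genes of the pathway were taken from 2 lists. Of 13 HIF subunits and regulators, 10 were expressed and 8 compared. Of these 8, 2 were higher and 6 lower in the authors' deposited table, where 22.6% of all genes were higher and 52.7% lower. HIF1A, the regulated subunit of HIF-1, had 25.4 ± 0.832 FPKM (SD, n = 3) and stood at -0.89 in the authors' deposited table, in a peak that carries an exon of another gene. EPAS1, which encodes HIF-2 alpha, stood at 0.72 and HIF1AN, the asparagine hydroxylase that blocks HIF activity, at 0.44 in the authors' deposited table. EGLN1, the main prolyl hydroxylase of HIF, stood at -0.24 and the coactivator CREBBP at -0.82 in the authors' deposited table. The signs of VHL, CITED2 and EP300 turned with another choice of peak.

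Of 22 glycolytic HIF targets, all were expressed, 16 had a listed peak (79.7% of all expressed genes did) and 13 were compared. Of these 13, 7 were higher and 5 lower in the authors' deposited table, beside the same background of 22.6% higher and 52.7% lower. The higher genes included the glucose transporter SLC2A1 (0.66), the hexokinase HK1 (0.89), the pyruvate kinase PKM (1.11) and PDK3 (0.78), a kinase that holds back pyruvate oxidation, in the authors' deposited table. PFKFB4, an enzyme that regulates glycolysis, was lower at -1.41 (log10 FDR -1.58) in the authors' deposited table, while the mean of its 2 compared peaks was -0.585. The signs of 5 of the 13 turned with another choice of peak, namely SLC2A3, HK2, PFKP, PFKFB3 and SLC16A3. The 6 without a listed peak were GPI, ALDOC, GAPDH, ENO2, LDHA and PDK1, 5 of them above 20 FPKM, as were MIF, P4HA1 and BNIP3L. Also above 20 FPKM, but with a listed peak, were SLC2A3, HK2, PFKFB4, ALDOA, TPI1, PGK1, PGAM1, ENO1 and PKM. Among all genes of 20 FPKM or more, 80.9% had a listed peak.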

How the data were processed

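The members and the gene lists were chosen with earlier results of these data known. Samples were grouped by their titles. FPKM per gene and input library was deposited by the authors, per the file headers, and 6 other per-sample columns of that table were not used. In the peak list the authors gave fold enrichment as a ratio of IP over input, a p-value, and log10 values of p and FDR, treated as a score since minus infinity occurs among them. The comparison is given by the authors as a log2 fold change with a p-value and a log10 FDR score per peak. The submitters' processing notes name fastp, HISAT2, HOMER and ChIPseeker. The peak caller, the genome build and the way replicates were combined were not given in the sources used here. Peak coordinates are those of the tables.

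Computed here were means and SDs over 3 input libraries, counts of members beside the same over all genes or peaks, overlaps of at least 1 base, exact Clopper-Pearson 95% intervals and motif counts in RefSeq promoters. No test of its own was run, since the peak tables hold no replicate values. Every member could be named, with full values for those with a changed peak or at least 20 FPKM. The functions were tested on simulated data. Python 3.11.15 with pandas 2.3.3 and scipy 1.17.1 was used.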

Additional observations from a re-analysis of the deposited data

How the results depend on the processing

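A 2-fold limit on top of the FDR limit left 2 changed target peaks in the authors' deposited table in place of 21, 1 higher and 1 lower. Taking the mean of a gene's peaks turned RBPJ to 0.36 and ZNF395 to 0.23 in the authors' deposited table, and taking the peak of highest absolute fold change turned them to 1.17 and 0.46. The mean also brought LOX from -1.19 to -0.16 and WSB1 from 0.53 to 0.07 in the authors' deposited table, and gave 6 genes higher and 8 lower in place of 4 and 10. The other settings tried (other FPKM limits, an FDR of 0.01, the list's FDR or enrichment limit, overlap of 50%, peaks in another gene's exon left out, log means with other pseudocounts) left the remaining counts within 1.5 times of those reported. Leaving out each input replicate gave a median level over all 31 targets, expressed or not, of 11.4 to 11.9 FPKM, against 11.6 FPKM with all 3, and left 23 members expressed and 20 of these with a listed peak. No paired analysis was possible because the IP libraries have no values per library and the comparison was made by the authors. With 3 libraries of 1 treatment and unknown depth, levels of the genes under 1 FPKM carry little weight.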
